A study of Mus musculus with 18 samples.

Results

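The genes described here are the 4 Argonautes, Ago1, Ago2, Ago3 and Ago4, and the microRNA processing genes Dicer1, Drosha, Dgcr8, Tarbp2 and Lin28a, in FVB/N mouse embryonic stem (ES) cells. All probe sets were taken whose chip annotation gives one of these 9 genes as the only symbol, which yielded 24 probe sets of 36701 and 9 genes of 15964. The study lists a probe set under the name Eif2c4, the older name of Ago4, as lower in the STAT3-MER cells of these same arrays. The genes were therefore chosen by signals of this same comparison, and their differences are given as a description. Counts of members past a threshold are set beside those of all probe sets, and nothing is read from them. RNA came from 3 dishes of wild type (WT) FVB/N ES cells kept in LIF and from 3 dishes of a transgenic FVB/N ES line, hemizygous for STAT3-MER, kept in 4-hydroxytamoxifen (OHT) without LIF. In this fusion, STAT3 carries an altered part of the mouse estrogen receptor that binds OHT, and a chicken β-actin promoter drives it. By the study's account WT cells of this kind gave no chimeras. Genotype, medium and cell line changed together between the groups, so that these cannot be told apart. The labels describe 1 kind of cell per group, the lines were established on mouse embryonic feeder fibroblasts, and the spread is that between dishes.

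MicroRNAs are cut from long transcripts in the nucleus by the Microprocessor, which is formed by the RNase III enzyme DROSHA and its RNA-binding partner DGCR8. The hairpin is exported and cut again by DICER1, which is assisted by TARBP2, and one strand is loaded into an Argonaute protein that binds target mRNAs. AGO2 is the Argonaute known for cleaving its targets, whereas LIN28A, an RNA-binding protein of undifferentiated cells, blocks the maturation of the let-7 microRNAs. ES cells are known to survive without Dgcr8 or Dicer1 but differentiate poorly.

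The U74v2 set has 3 chips, U74Av2, U74Bv2 and U74Cv2, and each was hybridized with 3 samples of either group, giving 18 arrays. Several short oligonucleotides against 1 transcript form a probe set, and its signal is a linear intensity. Between replicates of 1 group, the log2 signals of all probe sets correlated with r = 0.952 to 0.961 (U74Av2), 0.867 to 0.900 (U74Bv2) and 0.850 to 0.882 (U74Cv2). All 10 markers of ES cells that were looked up had a mean signal above 100. Their summed signal was 57862 to 85515 in WT and 63285 to 75470.3 in STAT3-MER replicates. Of the 10, 9 are on U74Av2 and 1 on U74Cv2, so that each sum joins arrays of both chips by replicate number. A number may not name the same dish on both. Of the 13 measured markers of feeder fibroblasts, 2 had a mean signal under 100, Vim (64.5) and Pdgfrb (80.9). Of all 13, 12 had a lower value in STAT3-MER cells (48.9% of all probe sets did), with 0 passing limma. The summed signal of the 13 was 17429 to 39530.3 in WT and 11154 to 41421 in STAT3-MER arrays. All 13 are probe sets of U74Av2, where the sum was lowest in WT replicate 2 and STAT3-MER replicate 1, so that it describes those arrays and not the U74Bv2 and U74Cv2 arrays. Signals of fibroblast transcripts thus differed within both groups, and their part in the values below was not tested. Fewer cells of a type and less RNA per cell cannot be told apart in such samples. Signals of different probe sets depend on their oligonucleotides, so that levels were compared only within a probe set.

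Since the transgene encodes STAT3, the RefSeq promoter windows of the genes (250 bases before to 50 bases after a start site, GRCm38.p6) were searched for the STAT motif TTCNNNGAA, which reads the same on both strands. Windows were given for 8 of the 9 genes, all but Ago2, as 9 windows. Of all 32851 windows 8.30% held the motif, and among those of the 9 genes 1 did, that of Lin28a. It held 2 matches, TTCTGGGAA ending 215 bases before the start site and TTCTCCGAA ending 5 bases before it. The window lies at chr4:134018767-134019066 on the minus strand and is shown because it is the only one with a match, with both matches in capitals:
Lin28a promoter: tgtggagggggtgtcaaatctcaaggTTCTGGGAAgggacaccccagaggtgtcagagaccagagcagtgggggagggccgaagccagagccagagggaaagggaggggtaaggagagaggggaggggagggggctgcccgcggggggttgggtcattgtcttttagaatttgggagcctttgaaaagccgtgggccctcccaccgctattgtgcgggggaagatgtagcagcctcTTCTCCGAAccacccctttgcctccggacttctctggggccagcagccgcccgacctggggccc
A match is a description of the letters and not of binding, which was not measured here.

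Of the 24 probe sets, 14 had a lower and 10 a higher value in the STAT3-MER than in the WT dishes (lower in 48.9% of all 36701), with a median log2 fold change of -0.11 against 0.01 over all probe sets. Log2 fold changes are those of log2(signal + 32), STAT3-MER minus WT, given with ± the standard error from limma (n = 3 each), and changes of dim probe sets come out too small on this scale. Signals are listed in the order of replicates 1 to 3. With the probe set of each gene that carries no cross-hybridization mark and has the highest mean, 3 of the 9 genes were lower and the median was 0.10, against 0.00 over all genes. The sign of the median therefore depended on the probe sets counted. None of the 24 passed limma at an adjusted p under 0.05 (0.00272% of all probe sets did), and 1 had an unadjusted p under 0.05 (3.44% of all). The largest log2 fold change in either direction was 0.85. All STAT3-MER arrays lay below all WT arrays on 2 probe sets (3.65% of all) and above them on 1 (4.47% of all). The methods' t-test at 0.1 took in 2 of the 24 (5.89% of all) and the methods' 3 criteria 1 (1.98% of all). In 14 of the 24 the sign of the log2 fold change turned when 1 replicate was left out, whereas 6 were lower and 4 higher whichever replicate was left out.

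**Figure D1:**
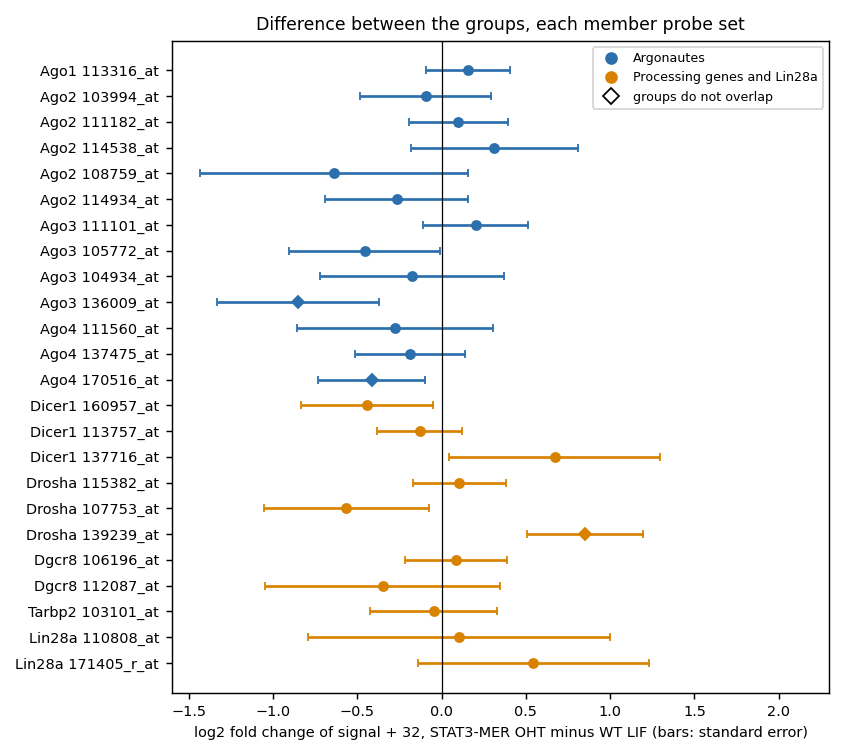
Log2 fold change of signal + 32, STAT3-MER OHT minus WT LIF, of each of the 24 probe sets, where bars show the limma standard error (3 arrays against 3). Diamonds mark the 3 probe sets without overlap between the groups, those of Ago3 (136009_at), Ago4 (170516_at) and Drosha (139239_at), and most other bars reach across 0.

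Ago4, whose older name the study lists, had 3 probe sets, and all 3 had a lower mean in the STAT3-MER dishes. On 170516_at (U74Cv2) the signal was 633, 536 and 458 in the WT arrays and 408, 410.0 and 369 with STAT3-MER. All STAT3-MER values lay below all WT values on this probe set. The means were 542 ± 87.5 and 396 ± 22.8 (SD, n = 3 each). The log2 fold change was -0.41 ± 0.32, and it lay between -0.52 and -0.30 when a replicate was left out. On 137475_at (U74Cv2), the Ago4 probe set with the higher signal, WT gave 715, 1175 and 642 and STAT3-MER 586, 696 and 884. The groups overlapped here, and WT replicate 2 stood above the other arrays. The log2 fold change was -0.19 ± 0.33, and 0.07 without WT replicate 2. The third, 111560_at (U74Bv2), was dim, and read 12.5, 116 and 29.3 for WT and 112, 10.7 and 4.94 for STAT3-MER. One array of each group was high on it, and its log2 fold change of -0.28 ± 0.58 turned to 0.22 without WT replicate 2 and was -0.90 without STAT3-MER replicate 1. The correlation of 137475_at and 170516_at over the 6 arrays of their chip was 0.22.

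The probe set that the study lists for Eif2c4, on U74Cv2, is paired with no gene in the annotation used here and is not among the 24. The study places it on a different chromosome from Ago4, which lies on chromosome 4. Whether it reads Ago4 is therefore not known here. The probe set gave 489, 605 and 504 in WT and 411, 475 and 529.7 with STAT3-MER. The groups overlapped, since STAT3-MER replicate 3 lay above WT replicates 1 and 3. Means were 533 ± 63.3 and 472 ± 59.3 (SD, n = 3 each), and the log2 fold change was -0.17 ± 0.31.

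Ago1 and Ago3 are the neighbours of Ago4 on chromosome 4, where the RefSeq genes follow each other in the order Ago3, Ago1 and Ago4. Ago1 was read by 1 probe set, 113316_at (U74Bv2), with 2659, 1918 and 2807 in WT and 2297, 2434 and 3566 with STAT3-MER. The groups overlapped, and STAT3-MER replicate 3 was the highest array. The log2 fold change was 0.16 ± 0.25, and -0.04 without STAT3-MER replicate 3. Ago3 had 4 probe sets, whose log2 fold changes ran from -0.85 to 0.20. On 136009_at (U74Cv2) WT gave 135, 128.2 and 194 and STAT3-MER 40.8, 127.9 and 56.2. The groups did not overlap there, but the highest STAT3-MER array and the lowest WT array were nearly equal, and signals were dim. The means were 152 ± 36.1 and 75.0 ± 46.5 (SD, n = 3 each), with a log2 fold change of -0.85 ± 0.48. On 111101_at (U74Bv2), the Ago3 probe set with the highest signal, the sign was opposite. WT gave 561, 408 and 329.9 and STAT3-MER 596, 452 and 442, so that the groups overlapped, and the log2 fold change was 0.20 ± 0.31. The groups also overlapped on 105772_at, with a log2 fold change of -0.46 ± 0.45, and on 104934_at, with -0.18 ± 0.55. These 3 Ago3 probe sets of U74Bv2 did not vary together, with correlations of -0.11, -0.29 and -0.68 over the 6 arrays. The probe sets of one gene therefore did not give one direction for Ago3.

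**Figure D2:**
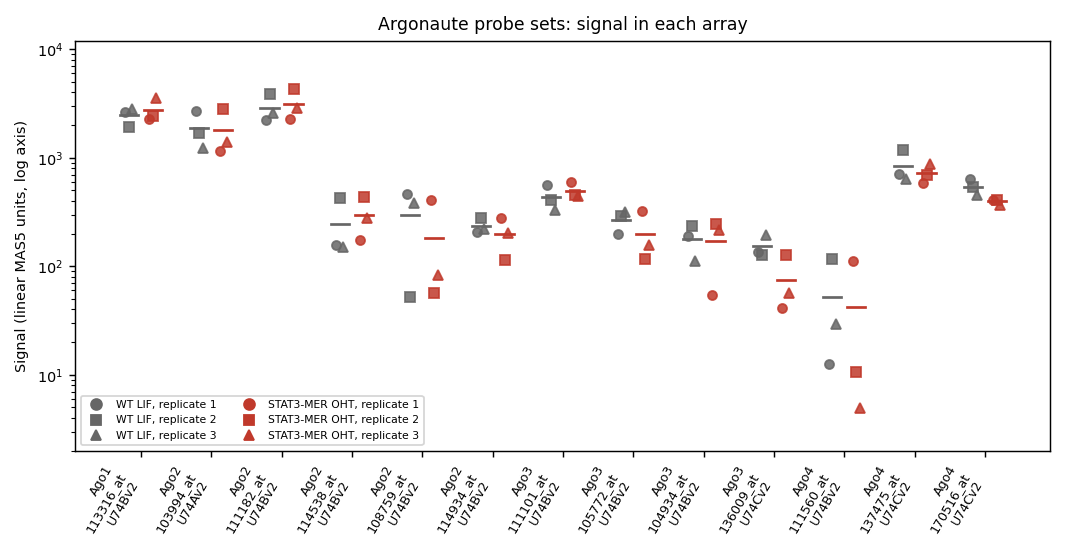
Signal of the 13 Argonaute probe sets in each array on a log axis, WT LIF in grey and STAT3-MER OHT in red, with a marker shape for each replicate number and a line at each group mean. Grey and red points overlap except on 136009_at of Ago3, where WT replicate 2 at 128.2 and STAT3-MER replicate 2 at 127.9 nearly touch, and on 170516_at of Ago4.

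Ago2, the Argonaute with slicer activity, lies on chromosome 15 and had 5 probe sets, and the groups overlapped on every one of them. On 111182_at (U74Bv2), which had the highest signal, WT gave 2236, 3885 and 2582 and STAT3-MER 2262, 4282 and 2855, with a log2 fold change of 0.10 ± 0.29. Replicate 2 was the highest of both groups. On 114538_at of the same chip WT gave 157, 430.4 and 150.2 and STAT3-MER 176, 438 and 280.4. Replicate 2 was again highest in both groups, and the correlation of both probe sets over the 6 arrays was 0.95. On 108759_at, also of U74Bv2, replicate 2 was instead the lowest of both groups. It read 460.2, 52.0 and 379 for WT and 412, 56.5 and 82.4 for STAT3-MER. Its correlation with 111182_at was -0.91 and with 114538_at -0.97. These are values of the same 6 arrays, which share labelling and scaling, and the pairs were singled out after their values were seen.

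On each of the 5 Ago2 probe sets the log2 fold change was smaller than its standard error without the replicate number as a block. With the number as a block the standard error fell to 0.16 on 111182_at and to 0.38 on 114538_at, both still above the log2 fold change, and to 0.51 on 108759_at, which is below the size of its change. On 111182_at and on 114538_at the STAT3-MER array was higher than the WT array in 3 of 3 same-numbered pairs, and on 108759_at in 1 of 3. On 108759_at the log2 fold change was -0.64 ± 0.79, and it ran from -1.45 without WT replicate 2 to -0.17 without WT replicate 1. On 114538_at it was 0.31 ± 0.50, and on 114934_at (U74Bv2) -0.27 ± 0.42. The probe set of U74Av2, 103994_at, gave 2709, 1695 and 1228 in WT and 1159, 2833 and 1404 with STAT3-MER. WT replicate 1 and STAT3-MER replicate 2 were the high arrays there. Both arrays also deviated together over all probe sets of U74Av2 (correlation of 0.46). A number may not name the same dish on both chips, so the pattern cannot be set beside that of 111182_at. STAT3-MER replicate 2 of U74Av2 carries no number in its label. The log2 fold change of 103994_at was -0.10 ± 0.39.

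**Figure D3:**
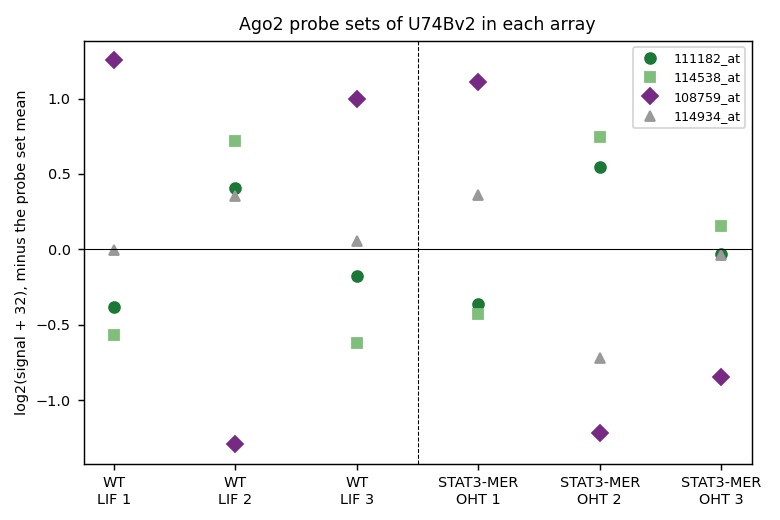
Log2(signal + 32) of the 4 Ago2 probe sets of U74Bv2 in each array, minus the mean of the probe set. In replicate 2 of both groups 111182_at and 114538_at are at their highest and 108759_at at its lowest. The dashed line separates WT LIF (left) from STAT3-MER OHT (right).

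Drosha, the nuclear RNase III, had 3 probe sets, which did not go one way. On 139239_at (U74Cv2) WT gave 316, 429 and 451 and STAT3-MER 802, 516 and 965 in replicates 1 to 3. All STAT3-MER values were above all WT values, and this was the probe set with an unadjusted p under 0.05. The means were 399 ± 72.2 and 761 ± 227 (SD, n = 3 each), a ratio of 1.91 and a log2 fold change of 0.85 ± 0.34, which lay between 0.66 and 1.10 when a replicate was left out. On 115382_at (U74Bv2), the Drosha probe set with the highest signal, WT gave 2189, 1348 and 1822 and STAT3-MER 1633, 1573 and 2619. The groups overlapped, with a log2 fold change of 0.11 ± 0.27. On 107753_at (U74Bv2) the STAT3-MER mean was lower, with a log2 fold change of -0.56 ± 0.49, and the groups overlapped. The position of these probe sets in the Drosha transcript was not analysed here.

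Dgcr8, the partner of DROSHA, had 2 probe sets on U74Bv2. WT gave 3308, 1972 and 2063 and STAT3-MER 3784, 2197 and 1941 on 106196_at. Replicate 1 was highest in both groups, and the log2 fold change was 0.09 ± 0.30. The dimmer 112087_at gave a log2 fold change of -0.35 ± 0.70, and the groups overlapped on both. The correlation of these probe sets over the 6 arrays was 0.53.

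Dicer1, which cuts the exported hairpin, was read best by 113757_at (U74Bv2). WT gave 1864, 1442 and 1958 and STAT3-MER 1527, 1234 and 2119.6, so that the ranges of the groups overlapped. The means were 1755 ± 275 and 1627 ± 451 (SD, n = 3 each), and the log2 fold change was -0.13 ± 0.25, and it turned to 0.05 without STAT3-MER replicate 2. The other 2 Dicer1 probe sets were dim and opposed each other, with a log2 fold change of -0.44 ± 0.39 on 160957_at (U74Av2) and of 0.67 ± 0.62 on 137716_at (U74Cv2). On 137716_at, WT replicates 1 and 2 read 18.4 and 20.8 and WT replicate 3 read 164. Tarbp2, the cofactor of DICER1, was read by 103101_at (U74Av2) with 382, 962 and 607 in WT and 739.9, 375 and 729 with STAT3-MER. Its groups overlapped, and the log2 fold change of -0.05 ± 0.38 was the smallest of the 24.

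**Figure D4:**
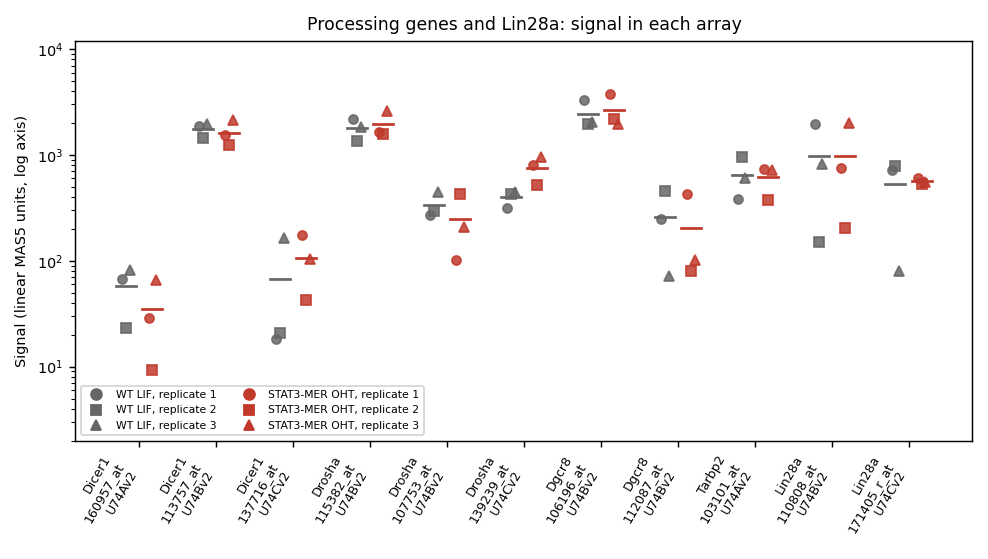
Signal of the 11 probe sets of Dicer1, Drosha, Dgcr8, Tarbp2 and Lin28a in each array on a log axis, WT LIF in grey and STAT3-MER OHT in red, with a marker shape for each replicate number and a line at each group mean. Only on 139239_at of Drosha do all red points, the lowest at 516, lie above all grey points, the highest at 451.

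Lin28a, on chromosome 4 but not next to the Argonautes, had 2 probe sets, and on both the log2 fold change was smaller than its standard error. On 110808_at (U74Bv2) WT gave 1947, 149 and 813 and STAT3-MER 753, 205 and 1989 in replicates 1 to 3. Both groups thus held a low array, that of replicate 2, and the highest array was 13.3 times the lowest. The means were 969.5 ± 909 and 982 ± 914 (SD, n = 3 each), and the log2 fold change was 0.10 ± 0.89 that ran from -0.84 to 0.91 with a replicate left out. On 171405_r_at (U74Cv2), whose suffix marks possible cross-hybridization, WT gave 714, 786 and 80.2 and STAT3-MER 599, 537 and 557. Only WT replicate 3 was low there, and WT replicate 2 was the highest. A number may not name the same dish on both chips, so that these arrays cannot be matched with those of 110808_at. The log2 fold change was 0.54 ± 0.69, and -0.39 without WT replicate 3.

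The genes whose log2 signal went most closely with a member over the 6 arrays of its chip were looked up for Ago4 and Lin28a, among probe sets with 1 gene, no suffix and a mean signal of at least 100. With 110808_at of Lin28a these were Nt5c3 (r = 0.99), Mcmbp (r = 0.98) and Rhbdd3 (r = 0.98), among 7253 probe sets of U74Bv2. With 137475_at of Ago4 they were B3galnt2 (r = 0.98), Smim10l2a (r = 0.97) and Nfs1 (r = 0.97), among 3425 of U74Cv2. These are the highest of many correlations over 6 points that share labelling and scaling.

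Around these genes, 56 further genes of small RNA pathways were listed, of which 47 had a probe set paired with that gene alone. None of the 47 passed limma at an adjusted p under 0.05 in either direction (0.00272% of all probe sets did). By limma 1 had an unadjusted p under 0.05 (3.44% of all probe sets). Of the 47, 27 were lower and 20 higher (lower in 48.9% of all probe sets). The median log2 fold change was -0.02, against 0.00 over all genes. Partners of nuclear processing (4 lower and 4 higher of 8) included the RNA helicase Ddx5, with a log2 fold change of -0.13 ± 0.16, and Hnrnpa1, an RNA-binding protein, with 0.38 ± 0.21. Hnrnpa1 gave 587, 863 and 699.8 in WT and 852, 1022 and 919 with STAT3-MER, and only WT replicate 2 lay within the STAT3-MER range. Of the export factors, Xpo5, the exportin of microRNA hairpins, had a mean of 2205 ± 628 under WT and 2155 ± 221 under STAT3-MER (SD, n = 3 each), and Ran, the GTPase of nuclear transport, 33526 ± 5971 and 29200.3 ± 4770.4. The groups overlapped on both.

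Among 13 partners of Argonaute and DICER1, 7 were lower and 6 higher. Prkra, a partner of DICER1, had a log2 fold change of -0.50 ± 0.49 on a probe set with a cross-hybridization suffix, and Fxr1, a relative of the fragile X protein, 0.64 ± 0.40, while its 3 other probe sets ranged from -0.31 to 1.65. Of 7 genes around LIN28 and let-7, 3 were lower and 4 higher. Trim71, the RNA-binding protein known as LIN41 and a target of let-7, gave 21119, 11597 and 17957 in WT and 13469.6, 8246 and 12699 with STAT3-MER. The groups overlapped through WT replicate 2, and the log2 fold change was -0.55 ± 0.28, on a probe set with a suffix, while its other probe set gave 0.18. Dis3l2, the exonuclease that degrades uridylated pre-let-7, had a log2 fold change of -0.30 ± 0.59. Of 14 genes of deadenylation and decay 9 were lower and 5 higher, with 0.32 ± 0.45 for Cnot1, the scaffold of the CCR4-NOT deadenylase, and -0.26 ± 0.23 for the deadenylase subunit Pan2. Of the Piwi pathway 3 genes were measured, 2 lower and 1 higher, and Piwil2, an Argonaute relative of the germline, gave -0.22 ± 0.70.

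The groups did not overlap on 3 of the 47 genes (8.12% of all probe sets), which are named here after their values were seen. Ddx6, a helicase of mRNA silencing, gave 1184, 1356 and 1367 in WT and 1031, 1079 and 1037 with STAT3-MER, a log2 fold change of -0.30 ± 0.17, while its 2 other probe sets had the opposite sign, at 0.16 and 0.37. On dim probe sets of Cnot7, a deadenylase, and Fxr2, a relative of Fxr1, the STAT3-MER arrays were the higher ones. Cnot7, the gene with the unadjusted p under 0.05, read 24.1, 31.8 and 46.4 for WT and 102, 97.0 and 94.2 for STAT3-MER (log2 fold change 0.99 ± 0.25), whereas its 2 other probe sets were at -0.31 and -0.28. Fxr2, with 1 probe set, read 35.5, 38.7 and 26.9 for WT and 77.1, 40.3 and 99.1 for STAT3-MER. The highest WT array and the lowest STAT3-MER array were nearly equal there, and the log2 fold change was 0.63 ± 0.28.

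**Figure D5:**
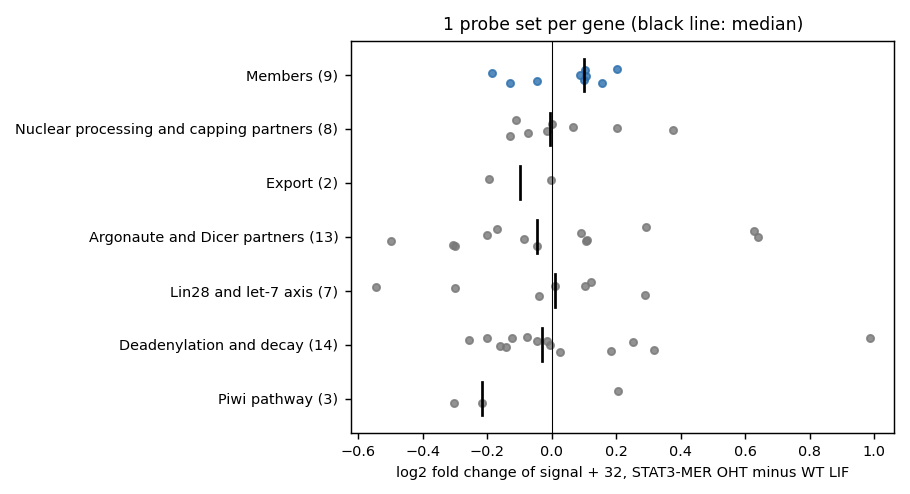
Log2 fold change of signal + 32, STAT3-MER OHT minus WT LIF, with 1 probe set per gene, for the 9 members (blue) and the 47 further genes by list (grey), with black lines for medians and the number of genes in brackets. The medians lie between -0.22 for the Piwi pathway and 0.10 for the members, and the point farthest to the right is Cnot7 at 0.99.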

How the data were processed

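RNA was amplified in 2 rounds and hybridized, and the authors deposited linear signal intensities, 1 for each probe set of an array. MAS5 is named, without a version, in the submitters' processing notes. The 2% trimmed mean of each array was between 500.1 and 500.3. Arrays were scaled to the mean trimmed mean of their chip, and log2(signal + 32) was compared by a two-sided limma test (version 3.58.1, R 4.3.3) that was fitted to each chip with an intensity trend in eBayes, with Benjamini-Hochberg adjustment over 36701 probe sets and no filter. The fit was tested on simulated arrays. The label of one STAT3-MER array of U74Av2 lacks a number, and it was called 2, the number left. Other arrays were numbered by their labels, and one array whose labels name 2 chips was placed by its value table. Whether a number names the same dish on all 3 chips is not known. Gene names came from the chip annotation, updated through RefSeq (GRCm38.p6). Of the probe sets 29131 had 1 gene, 724 several and 6846 none. Members and lists were chosen with earlier results of these data known.

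Besides all member probe sets and that listed by the study for Eif2c4, the named genes were the 2 with the largest log2 fold change of each list, either direction, with a mean signal of at least 100 (1 for the Piwi pathway) and the 3 most alike to Ago4 and Lin28a. Markers of ES cells, fibroblasts, primitive endoderm, neural cells and mesoderm were fixed as well. The study's own fold changes came from dChip models, which were not used here. With 3 dishes against 3, an exact permutation test cannot give a two-sided p below 0.1, and the number of arrays limits the precision. Same-numbered WT and STAT3-MER arrays deviated together on U74Bv2 (correlations of 0.13 to 0.21) and more weakly on U74Cv2 (0.07 to 0.13). This pairing comes from the replicate numbers of the labels. The alternatives were other scalings, pseudocounts of 8 and 100, a filter on mean signals under 100, a variance model without a trend, adjustment within each chip, the replicate number as a block, each replicate left out, the methods' t-test, the 3 criteria of the methods (ratio over 1.5, difference over 100, p under 0.1) and averaging over a gene's probe sets.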

Additional observations from a re-analysis of the deposited data

How the results depend on the processing

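With the replicate number as a block (replicate block), 0 of the 24 member probe sets passed, as without it, and the block changed no call. Each number occurs once in each group, so that the block cannot change a log2 fold change, only its standard error. The 14 lower probe sets and the median of 0.10 over the 9 genes were therefore fixed in advance. On U74Cv2 same-numbered arrays deviated together weakly, with correlations of 0.11, 0.13 and 0.07. All other pairs of a WT and a STAT3-MER array of that chip had negative correlations. Deviations were taken from the mean of each group and cancel within it, so that a positive pair makes the others negative on balance. The negative values are therefore no further sign of pairing. On U74Av2 same-numbered arrays deviated with correlations of -0.30, -0.33 and 0.29. WT replicate 1 of U74Av2 deviated together with STAT3-MER replicate 2 (0.46), the array without a number in its label. WT replicate 2 did so with STAT3-MER replicate 1 (0.41). For replicates 1 and 2 the block on U74Av2 thus joins arrays that deviate oppositely. Over all alternatives fitted with limma 0 member probe sets and 0 of the 47 further genes passed (for the latter, adjustment within each chip was added after seeing the data). The methods' t-test, run with unequal variances on the log2 values, gave 2 member probe sets at its threshold of 0.1 (Ago4 170516_at and Drosha 139239_at) and 2160 of all, and 0 of all after Benjamini-Hochberg adjustment. The 3 criteria of the methods, with that t-test run on the linear signals instead, gave 1 member probe set (Drosha 139239_at) and 725 of all. With a replicate left out, the probe sets called among all numbered 1 to 2 (2 without WT replicate 3), and member probe sets without overlap 3 to 6, against 3 with all arrays. The latter were 5 when WT replicate 2 or 3 was dropped and 6 when STAT3-MER replicate 1 was, but with 2 arrays against 3 the share of all probe sets without overlap also went from 8.12% to between 16.3% and 18.3%, so that the rise is not a result about the members. Member probe sets without overlap were 2 under quantile or median scaling. The share of all probe sets under these scalings was not counted, so that nothing is read from the difference. No other scaling or pseudocount turned the sign of a member probe set. The filter and the variance model without a trend leave each log2 fold change as it is, so that they could not turn a sign. Leaving out WT replicate 2 turned 9 of the 24. The median of the 9 genes was -0.05 when all probe sets of a gene were averaged, and -0.13 to 0.23 with a replicate left out. The filter on mean signals under 100 left 21 of the 24. The arrays carry no detection call, so that a dim probe set cannot be told from background.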

Other observations

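Markers of other cells that an ES culture can hold were also read. The summed signal of 8 markers of primitive endoderm was 2125 to 5640.3 in WT and 2369 to 4508 in STAT3-MER arrays. Sums were 803 to 1318 and 929 to 1348 for 4 neural markers. For the 2 measured markers of mesoderm they were 119 to 627 and 87.6 to 423. Of the neural markers 1 is on U74Bv2, and of the mesoderm markers 1 is on U74Cv2, whereas the others are on U74Av2. The neural and mesoderm sums thus join arrays of different chips by replicate number. The ranges of the groups overlapped for each list, and none of these markers passed limma over all probe sets.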
